A study of Mus musculus with 4 samples.

Results

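The 4 genes described here encode the peptidylarginine deiminases Padi1, Padi2, Padi3 and Padi4, and were matched by symbol among the 55450 genes of the matrix. Each symbol matched a single row. Their transcripts were followed in 32133 of 33064 cell barcodes, after barcodes with under 300 detected genes or with over 15% mitochondrial transcripts were left out. The genes were chosen by how their levels differed between tumour cells and neutrophils among these same barcodes, so that difference is given as a description, with no test.

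Tumours were grown from the 4T1 line, which derives from a mammary carcinoma of the mouse, by placing 1000000 of its cells in the right flank of each female BALB/c mouse of 6 to 8 weeks. The labels list 4 samples. In 2 of them the mice had received PBS and in 1 of them TIOs, a light-controlled oncolytic nanosystem derived from macrophages, and the treatment of the remaining sample is named differently in its title and in its protocol. All mice were injected intravenously on day 7, their tumours were lit with 980 nm near-infrared light for 5 min at 1.0 W cm-2 on days 8, 9 and 10, and the tumours were taken on day 13. By the study's methods the suspensions were sorted for CD45, a surface protein of leucocytes whose gene is Ptprc. Single cells were profiled on the 10x Genomics platform, which counts unique molecular identifiers (UMIs), each marking 1 captured transcript molecule. Each barcode ends in 1 of 4 suffixes, which mark 4 libraries. Since neither the labels nor the methods say which sample a suffix belongs to, the libraries were taken as 1 pooled sample of unknown mixture, the treatments were not compared, and no p-value was computed.

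Peptidylarginine deiminases are calcium-dependent enzymes that convert arginine residues of proteins to citrulline, which removes a positive charge. Padi4 can enter the nucleus and citrullinates histones, and in neutrophils it is known for its part in the release of extracellular chromatin traps. Padi2 is the most widely expressed member of the family and is known from brain, muscle and secretory tissues, while Padi1 and Padi3 are known from epidermis and hair follicles, where they act on keratins, filaggrin and trichohyalin.

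The 4 genes lie in a single cluster on mouse chromosome 4 (GRCm38, GENCODE vM21), which spans chr4:140745865-140952586, or 206722 bases. Padi4 (chr4:140745865-140774236), Padi3 (chr4:140785365-140810648) and Padi1 (chr4:140812983-140845778) lie on the minus strand, and Padi2 (chr4:140906344-140952586) on the plus strand. The identifiers were ENSMUSG00000025329 for Padi1, ENSMUSG00000028927 for Padi2, ENSMUSG00000025328 for Padi3 and ENSMUSG00000025330 for Padi4. The noncoding gene Gm13032, on the plus strand, overlaps the 3′ part of Padi1, and reads of the pair cannot be told apart where counting ignores strand. Use of strand in the counting is not stated by the sources read. Padi6, the egg and embryo member of the family, lies beside Padi4 and held 1 UMI in all kept cells.

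The windows shown run from 250 bases before to 50 bases after each RefSeq transcription start (GRCm38.p6). They are given because the starts lie in a single cluster and each gene had a higher pooled level in tumour cells than in neutrophils. Capitals mark the motifs searched for on both strands, which were the TATA box with the letters TATAAA, the GC box with the letters GGGCGG, the box named by its letters CCAAT, the AP-1 site with the letters TGACTCA and the E-box with the letters CACGTG. A GC box on the other strand reads CCGCCC and a CCAAT box there reads ATTGG.
Padi1, chr4:140845729-140846028, minus strand: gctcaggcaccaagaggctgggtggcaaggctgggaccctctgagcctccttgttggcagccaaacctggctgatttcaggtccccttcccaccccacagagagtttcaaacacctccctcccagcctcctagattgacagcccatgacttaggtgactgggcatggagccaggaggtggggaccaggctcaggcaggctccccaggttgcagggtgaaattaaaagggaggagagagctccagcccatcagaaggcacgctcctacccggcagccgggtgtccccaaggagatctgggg
Padi2, chr4:140906110-140906409, plus strand: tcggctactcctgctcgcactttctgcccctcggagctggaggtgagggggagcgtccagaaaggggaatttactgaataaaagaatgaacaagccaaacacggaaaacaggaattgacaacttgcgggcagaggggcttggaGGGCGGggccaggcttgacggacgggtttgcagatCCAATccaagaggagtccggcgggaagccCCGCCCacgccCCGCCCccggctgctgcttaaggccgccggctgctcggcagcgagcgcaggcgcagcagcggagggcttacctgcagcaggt
Padi3, chr4:140810599-140810898, minus strand: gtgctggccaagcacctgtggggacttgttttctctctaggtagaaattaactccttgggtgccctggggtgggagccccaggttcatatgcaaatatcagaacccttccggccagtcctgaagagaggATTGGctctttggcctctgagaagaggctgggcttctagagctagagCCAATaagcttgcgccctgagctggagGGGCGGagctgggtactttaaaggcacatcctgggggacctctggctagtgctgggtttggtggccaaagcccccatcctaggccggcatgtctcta
Padi4, chr4:140774154-140774453, minus strand: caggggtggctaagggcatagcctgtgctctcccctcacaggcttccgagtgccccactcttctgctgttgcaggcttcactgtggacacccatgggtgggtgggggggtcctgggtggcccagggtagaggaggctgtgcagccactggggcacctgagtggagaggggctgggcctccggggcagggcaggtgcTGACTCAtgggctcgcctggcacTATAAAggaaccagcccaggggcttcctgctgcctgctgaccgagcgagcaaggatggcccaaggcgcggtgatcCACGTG

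Counting the start base as position 0, the window of Padi4 held a TATA box with its first base at -31, an AP-1 motif at -54 and an E-box at 44. Over 32817 windows of the same kind, 13.6% held a TATA box, 5.20% an AP-1 motif and 7.15% an E-box. The window of Padi2 held GC boxes at -107, -43 and -32 and a CCAAT box at -72, and that of Padi3 a GC box at -47 and CCAAT boxes at -74 and -121. A GC box was found in 35.6% of all windows and a CCAAT box in 37.4%. The window of Padi1 held none of the 5 motifs. The GC content was 61.3% for Padi1, 63.3% for Padi2, 56.7% for Padi3 and 66.3% for Padi4, against a median of 52.7% over all windows, and Padi2 had 22 CpG dinucleotides against 3, 4 and 8 for Padi1, Padi3 and Padi4. These are matches of letters, and none of them was tied to the levels below.

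The libraries held 69255999 to 108646352 UMIs and gave 6783 to 8889 kept cells, with a median of 2641.5 to 11698 UMIs per kept cell. Library 1 stood apart by depth and by its cells, since it held 2992 of the 3094 tumour cells and the remaining 102 were in library 2. Libraries 3 and 4 had none. In all, 101 barcode sequences occurred in 2 libraries, and the kept barcodes with such a sequence included 23 tumour cells and 35 neutrophils. Levels are given as CPM, which is the gene's share of all UMIs in the cells of a class, scaled to 1000000, with exact 95% Poisson intervals in brackets. These intervals, like the exact binomial intervals of shares and ratios, cover counting error only and not differences between mice. Levels are compared between cells, not between genes, since UMIs from one end of a transcript were not scaled to length.

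Tumour cells were taken as cells in which the keratins Krt8 and Krt18 made up at least 0.2% of UMIs, with no Ptprc UMI and at least 5000 UMIs in all. Neutrophils were cells in which S100a8 and S100a9 made up at least 1% of UMIs, with at least 1 UMI of Csf3r, the receptor of granulocyte colony-stimulating factor. The gates held 3094 and 6203 cells, with no cell in both. All 5 epithelial genes that the gates did not use (Epcam, Cldn4, Cdh1, Krt7 and Krt19) were at least 4-fold higher in the tumour cells, with a summed level of 1954 CPM against 55.0 CPM, and all 6 further neutrophil genes (Cxcr2, Retnlg, Ly6g, Mmp9, Il1r2 and Hdc) were at least 4-fold lower, with 105 CPM against 5172 CPM. Over all libraries the keratinocyte genes Krt14, Krt15 and Trp63 were also at least 4-fold higher in the tumour cells (3 of 3 genes). Their summed level was 278 to 319.5 CPM in the 2 libraries with tumour cells and 0.18 to 120 CPM in neutrophils of the 4 libraries. Trp63 held no UMI in the tumour cells of library 2. The part of keratinocytes in the tumour cell levels was not tested. Although the cells had been sorted for CD45, the tumour cells held no Ptprc UMI, because the gate asked for none.

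All 4 deiminase genes were higher in tumour cells than in neutrophils, by at least 4-fold in the pooled counts. Inside library 1, which held most tumour cells, the log2 ratios of Padi1 (1.56) and Padi4 (1.45) were under 4-fold. The Padi1 value rested on 2 UMIs of a single neutrophil that had the keratin share of the tumour cell gate. Of 16350 genes with at least 20 UMIs in the 2 classes together, 3197 (19.6%) were at least 4-fold higher in tumour cells and 2794 (17.1%) at least 4-fold lower. Because this contrast chose the genes, nothing is read from their count. Among the genes tested, 0.71% had a higher pooled ratio than Padi1, 3.09% than Padi4, 6.01% than Padi2 and 16.0% than Padi3. These places come from the contrast that chose the genes, so nothing is read from them either. That of Padi1 rests on 3 neutrophil UMIs.

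Padi4 was the member found in most tumour cells. It was counted at 165 CPM [162, 168] in the tumour cells of library 1 and at 85.8 CPM [76.9, 95.4] in those of library 2. In neutrophils it was at 60.6 CPM [48.2, 75.2] in library 1, and at 6.62, 6.63 and 7.69 CPM in libraries 2, 3 and 4. The neutrophils of library 1 thus stood apart from those of the other libraries, and every tumour cell value lay above every neutrophil value. Over all libraries, tumour cells had 10894 Padi4 UMIs and a level of 161 CPM, neutrophils had 185 UMIs and 11.4 CPM [9.83, 13.2], and the log2 ratio was 3.81 [3.60, 4.03]. Inside library 1 the log2 ratio was 1.45, and with libraries weighted equally it was 2.62. The tumour cells of library 2 were deeper than those of library 1 (median 36149 against 19172 UMIs). They also held more Col1a1 (260 against 48.6 CPM) and Cd3e (9.14 against 1.56 CPM), and less C1qa (14.5 against 87.8 CPM). The part of these differences in the Padi4 levels of the 2 libraries was not tested.

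At least 1 Padi4 UMI was found in 2703 of 3094 tumour cells (87.4% [86.1, 88.5], median depth 19348 UMIs). In fibroblasts, a class of like depth (median 16678 UMIs), the share was 1.80% [1.21, 2.58], and in neutrophils, with a median of 1889 UMIs, it was 2.27% [1.92, 2.68]. Inside library 1 the share was 87.7% [86.5, 88.9] of tumour cells and 12.2% [6.99, 19.3] of fibroblasts, on 15 of 123 cells. After each cell was thinned to 1000 UMIs, Padi4 was found in 15.4% [14.2, 16.7] of tumour cells and 0.97% [0.74, 1.26] of neutrophils, of which 241 shallower cells were left out. The share in tumour cells thus remained above that in neutrophils at equal depth. Of the tumour cells, 391 held no Padi4 UMI, 520 held 1, 1280 held 2 to 4, and 903 (29.2%) held 5 or more, with a median of 3 and a maximum of 21.

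**Figure D1:**
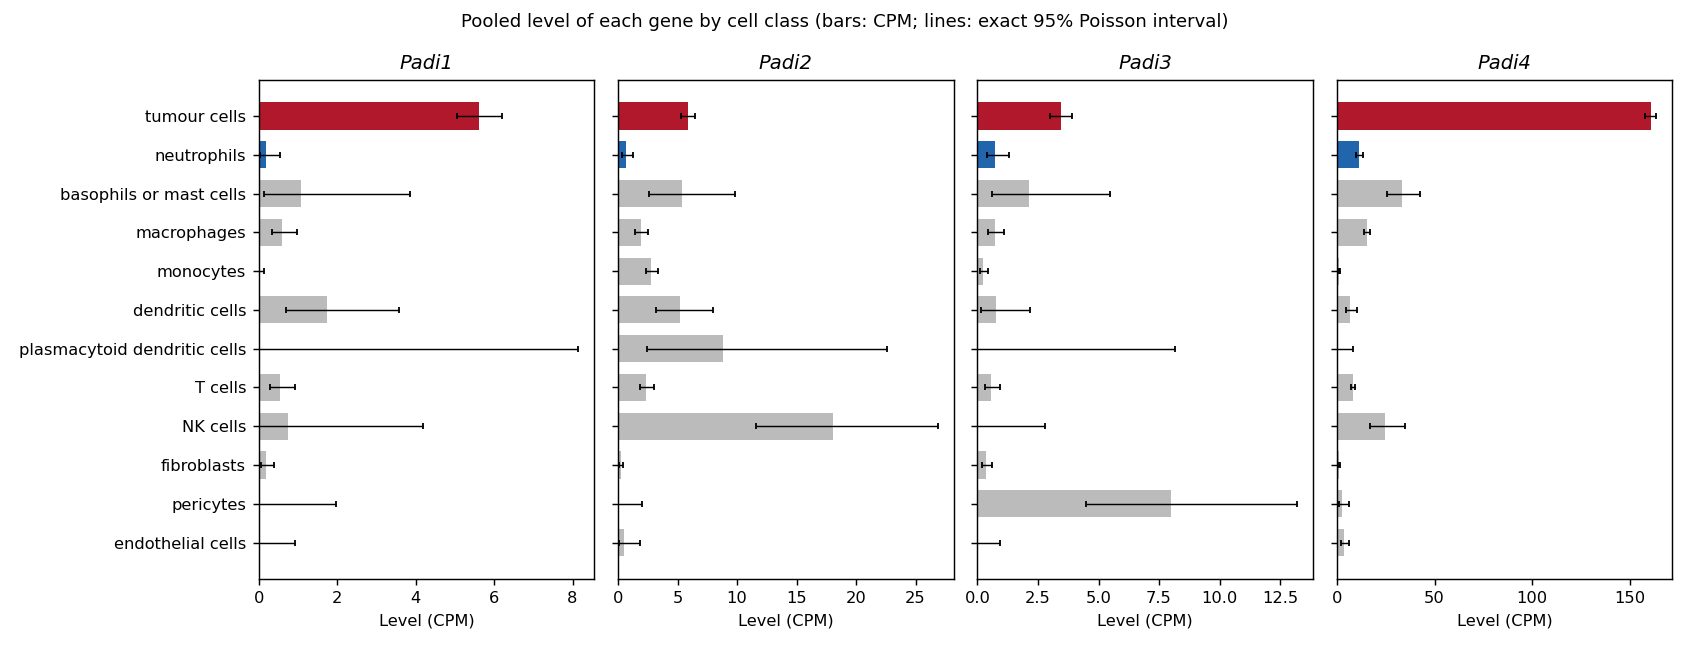
Pooled level of each deiminase gene (CPM, linear axis with its own range for each gene) in tumour cells (red), neutrophils (blue) and 10 other gated classes (grey), with exact 95% Poisson intervals as lines. Padi1 and Padi4 were highest in tumour cells, Padi2 reached 18.0 CPM in NK cells and Padi3 8.00 CPM in pericytes.

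The order of the pooled Padi4 levels below tumour cells was basophils or mast cells (33.2 CPM), NK cells (24.8 CPM), keratinocytes (21.7 CPM), macrophages (15.3 CPM), neutrophils (11.4 CPM), T cells (8.29 CPM), dendritic cells (6.95 CPM), endothelial cells (3.55 CPM), pericytes (2.67 CPM), monocytes (1.12 CPM) and fibroblasts (0.99 CPM). The intervals of neighbours in this order overlapped except between tumour cells and basophils or mast cells, between macrophages and neutrophils, and between neutrophils and T cells. Without the cells that had the keratin share of the tumour cell gate the order was keratinocytes (21.7 CPM), NK cells (9.53 CPM), neutrophils (9.45 CPM), macrophages (8.63 CPM), endothelial cells (3.55 CPM), dendritic cells (3.15 CPM), basophils or mast cells (2.81 CPM), pericytes (2.67 CPM), T cells (2.22 CPM), fibroblasts (0.96 CPM) and monocytes (0.51 CPM). Basophils or mast cells thus moved from the first place to the seventh, since 58 of their 62 UMIs lay in 11 such cells. In this second order the intervals of neighbours overlapped except between macrophages and endothelial cells and between T cells and fibroblasts. The NK cell value [4.93, 16.7] rested on 12 UMIs in 3 of 152 cells, with 8 in 1 cell. That of keratinocytes [12.1, 35.8] rested on 15 UMIs in 9 of 41 cells, with 7 in 1 cell. No UMI was found in 68 plasmacytoid dendritic cells or 36 B cells, and 3 UMIs, the limit that a count of 0 allows, would have been a share of up to 4.41% and 8.33% of these cells.

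The order differed between libraries, and the high levels outside tumour cells came from library 1. There Padi4 was at 46.3 CPM in T cells, 49.9 CPM in monocytes, 24.6 CPM in macrophages and 9.12 CPM in fibroblasts. In library 2 these classes had 11.3, 4.16, 2.45 and 1.08 CPM. In libraries 3 and 4, which held no tumour cells, T cells had 0.25 and 0 CPM, monocytes 0 and 0.31 CPM, macrophages 0 and 0.58 CPM, and fibroblasts 0.21 and 0.12 CPM. The level in every one of these 4 classes was thus highest in library 1, followed by library 2. Of the 62 UMIs in basophils or mast cells, 59 were in library 1, where up to 14 lay in 1 cell, and the 25 UMIs in NK cells of library 1 lay in 5 cells.

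**Figure D2:**
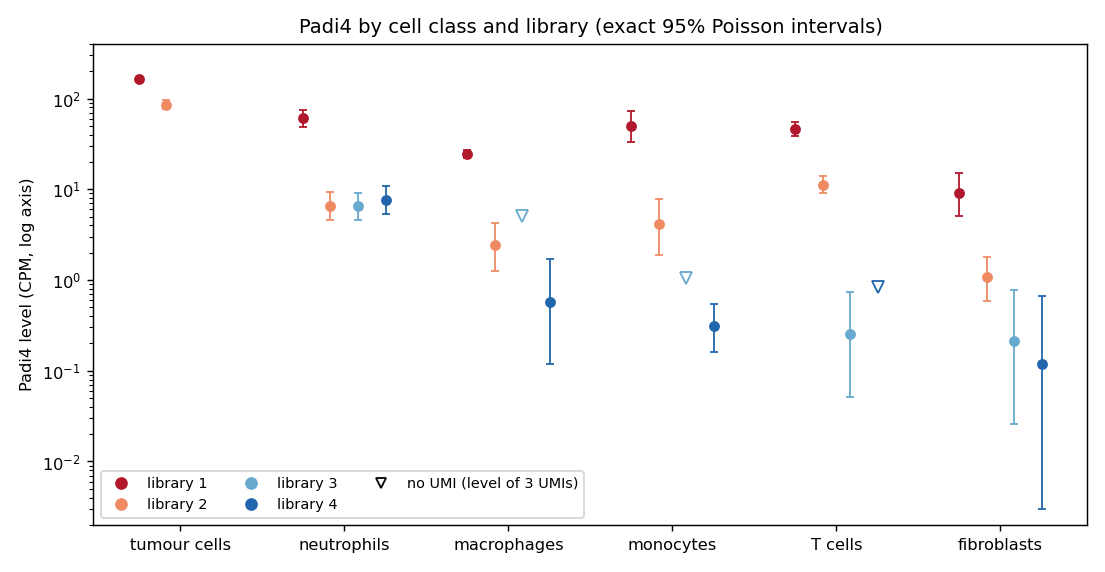
Padi4 level (CPM, log axis) in 6 cell classes, with a colour for each library, exact 95% Poisson intervals as lines and open triangles at the level of 3 UMIs where no UMI was found (classes with under 50 cells in a library are not drawn). Neutrophils of libraries 2 to 4 sit between 6.62 and 7.69 CPM, while the other immune classes fall from 24.6 to 49.9 CPM in library 1 to below 1 CPM in libraries 3 and 4.

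Keratin transcripts moved with Padi4 in these classes. The gated T cells of library 1 held Krt8 and Krt18 at 1811 CPM together, its macrophages at 973 CPM and its neutrophils at 1410.2 CPM, against 6103 CPM in the tumour cells. The ratio of Padi4 to these keratins was therefore taken in each class. Per 1000 keratin UMIs, library 1 had 27.1 Padi4 UMIs [26.5, 27.6] in tumour cells, 25.6 [21.3, 30.5] in T cells and 25.3 [22.9, 28.0] in macrophages. The intervals of these classes overlapped, as did those of fibroblasts (25.4 [14.1, 42.2]) and monocytes (30.4 [20.1, 44.2]). Neutrophils had 43.0 [34.0, 53.6] and NK cells 51.0 [32.7, 76.2], both above the interval of the tumour cells. In library 2 the ratio was 23.3 [20.9, 26.0] in tumour cells, 29.8 [23.7, 37.0] in T cells and 109 [74.1, 156] in neutrophils. There the macrophages (61.9 [31.4, 111]), fibroblasts (51.9 [28.0, 88.5]) and dendritic cells (40.7 [26.1, 60.6]) also lay above the interval of the tumour cells. Monocytes (38.1 [17.2, 73.6]) and endothelial cells (41.2 [17.6, 82.9]) overlapped with it. Of the 25 Padi4 UMIs of these dendritic cells, 14 lay in 2 cells with the keratin share of the tumour cell gate and 10 in 1 other cell. The interval does not cover such clumping, so no order is read for dendritic cells. Cells with the keratin share of the tumour cell gate were then left out. In the T cells of library 1, 107 of the 126 Padi4 UMIs lay in 33 such cells, and the level of the remaining cells was 9.88 CPM [5.95, 15.4] in place of 46.3 CPM. The remaining monocytes of library 1 had 20.4 CPM [8.81, 40.2], its macrophages 14.4 CPM [12.4, 16.6] and its fibroblasts 8.53 CPM [4.66, 14.3]. These levels were lower than those of all cells of the class, and their intervals lay above those of the same classes in libraries 3 and 4 that held a Padi4 UMI.

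**Figure D3:**
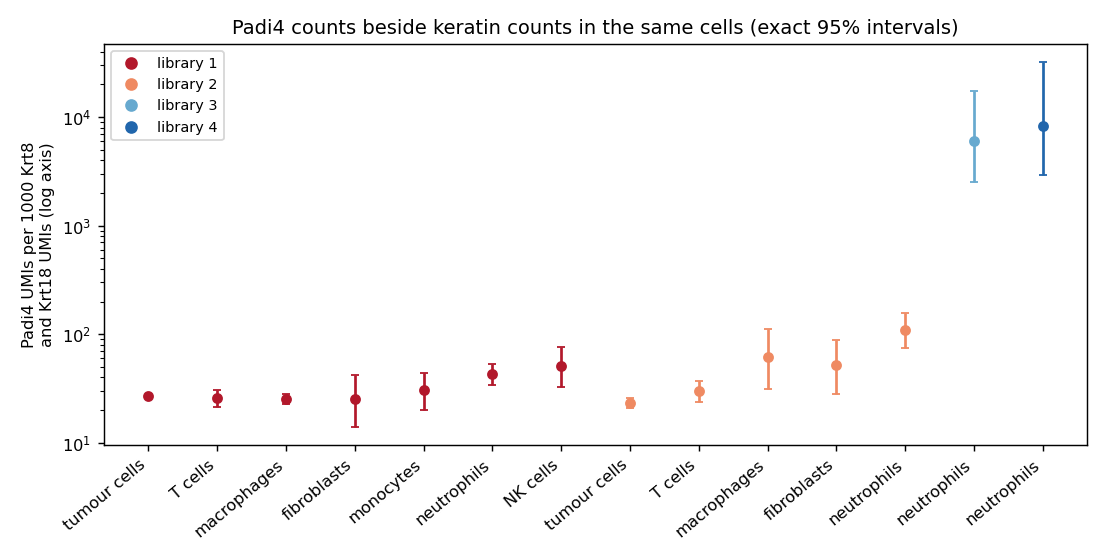
Padi4 UMIs per 1000 UMIs of Krt8 and Krt18 together in the same cells (log axis), by class and library, with exact 95% intervals as lines. Most classes of library 1 sit near the 27.1 of its tumour cells, while neutrophils of libraries 3 and 4 reach 6000 and 8250 on 6 and 4 keratin UMIs.

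Padi4 was also counted in neutrophils where no tumour cell was found. In library 3 it had 36 UMIs in 33 of 2005 neutrophils, and in library 4 it had 33 UMIs in 30 of 1673 neutrophils. The same neutrophils held 6 and 4 keratin UMIs, so that there were 6000 and 8250 Padi4 UMIs per 1000 keratin UMIs. Over both libraries, neutrophils had 7.10 CPM of Padi4 and the other gated classes 0.27 CPM, on 69 and 23 UMIs, a log2 ratio of 4.74 [4.04, 5.49]. Neutrophils were thus the class with the highest Padi4 level in both of these libraries among classes with at least 50 cells. After thinning to 1000 UMIs, 0.67% [0.36, 1.14] of the neutrophils of library 3 and 1.04% [0.61, 1.66] of those of library 4 held a Padi4 UMI, against 0.12% [0.034, 0.32] of the monocytes of library 4. In library 1, neutrophils under the keratin share of the tumour cell gate had 45.9 CPM [33.8, 60.9], and the 133 neutrophils without any keratin UMI had 27.2 CPM [9.97, 59.1] on 6 UMIs, an interval whose lower end lies above the levels of libraries 3 and 4 and inside the interval of library 4 [5.29, 10.8].

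Padi1, known from the upper epidermis, was counted 381 times in tumour cells and 3 times in neutrophils. Its level was 4.37 CPM [3.87, 4.91] in the tumour cells of library 1 and 25.9 CPM [21.1, 31.4] in those of library 2. The intervals did not overlap, and the order was the opposite of that of Padi4. The part of the greater depth of the library 2 tumour cells in this difference was not tested. In library 2, 36 of 102 tumour cells held a Padi1 UMI and the highest held 19; without that cell the level was 21.6 CPM [17.2, 26.8]. The overlapping gene Gm13032 was at 4.54 CPM [4.03, 5.09] in library 1 and at 2.54 CPM [1.22, 4.67] in library 2, so it did not show the higher level of library 2. In neutrophils Padi1 was at 1.48 CPM in library 1, on 2 UMIs of a single cell, at 0.19 CPM in library 2 and at 0 in libraries 3 and 4. That single cell had the keratin share of the tumour cell gate. The 427 neutrophils of library 1 without this share held 0 Padi1 UMIs. The pooled log2 ratio was 4.92 [3.37, 7.21], it was 8.59 without library 1, and it was 1.56 inside library 1, where it rested on that cell.

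At least 1 Padi1 UMI was found in 8.92% [7.94, 9.98] of tumour cells, 0.032% [0.0039, 0.12] of neutrophils and 0.37% [0.14, 0.81] of fibroblasts. Outside tumour cells the highest levels were 1.74 CPM in dendritic cells, 1.45 CPM in keratinocytes and 1.07 CPM in basophils or mast cells, on 7, 1 and 2 UMIs. Their intervals overlapped with each other, and the interval of the 41 keratinocytes [0.037, 8.06] also held the level of the tumour cells. The classes below were NK cells (0.75 CPM), macrophages (0.60 CPM), T cells (0.55 CPM), fibroblasts and neutrophils (both 0.19 CPM) and monocytes (0.023 CPM), and no Padi1 UMI was found in B cells, plasmacytoid dendritic cells, endothelial cells or pericytes. The 2 UMIs of basophils or mast cells lay in cells with the keratin share of the tumour cell gate. Without such cells dendritic cells had 1.84 CPM, T cells 0.33 CPM, macrophages 0.25 CPM and neutrophils 0.063 CPM. Thinned to 1000 UMIs, 15 of 3094 tumour cells and 1 of 5962 neutrophils held a Padi1 UMI.

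Padi2, the broadly expressed member, was the least bound to tumour cells of the 4 genes, with 38.9% of its 1021 UMIs in them. Tumour cells had 5.73 CPM [5.15, 6.34] in library 1 and 7.87 CPM [5.35, 11.2] in library 2, with overlapping intervals. Neutrophils had 0.74, 0.39, 0.55 and 1.17 CPM in libraries 1 to 4, all below both tumour cell values. The pooled levels were 5.85 and 0.68 CPM and the log2 ratio was 3.11 [2.25, 4.12]. The share of cells with a UMI was 11.0% in tumour cells, 0.15% in neutrophils and 0.44% in fibroblasts. After thinning it was 0.42% of tumour cells and 0 of 5962 neutrophils, where 0 counts allow a share of up to 0.0503%.

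Padi2 was highest in NK cells, lymphocytes marked here by Ncr1 without Cd3 transcripts. They held 24 UMIs in 21 of 156 cells and a level of 18.0 CPM [11.6, 26.9]. The level was 17.3 CPM in library 1, 12.9 CPM in library 2, 41.0 CPM in library 3 and 15.3 CPM in library 4, where the NK cells numbered 54, 6, 20 and 76. All 4 values were above those of the T cells of the same library (7.72, 1.88, 1.17 and 3.34 CPM). Libraries 1 and 4 held 6 and 12 of the 24 UMIs, and libraries 2 and 3 had under the 50 cells asked for elsewhere, so their values rest on very few UMIs. The pooled ratio of NK cells over T cells was 7.60 [4.53, 12.4], the ratio inside library 1 was 2.24 [0.74, 5.73] and the ratio inside library 4 was 4.59 [1.88, 11.2]. The gated T cells held 3 fibroblast genes that no gate used at a summed 2344 CPM, and the NK cells at 1175 CPM. Fibroblasts held these genes at 5717 CPM and Padi2 at 0.22 CPM. The part of fibroblast transcripts in the ratio was not tested. NK cells also had 3.08-fold the level of tumour cells [1.95, 4.66].

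Monocytes, marked by Ly6c2 and Ccr2, held Padi2 in every library, at 3.57, 3.70, 2.45 and 2.75 CPM in libraries 1 to 4, and the intervals overlapped. Their pooled level of 2.79 CPM was 4.11-fold that of neutrophils [2.22, 8.46]. This pooled ratio mixes libraries, since 3226 of the 3920 monocytes were in library 4. There Padi2 was at 2.75 CPM [2.25, 3.33] in monocytes and 1.17 CPM [0.38, 2.72] in neutrophils, on 105 and 5 UMIs, with overlapping intervals. Plasmacytoid dendritic cells had 8.83 CPM [2.41, 22.6] on 4 UMIs, dendritic cells 5.21 CPM [3.23, 7.97], basophils or mast cells 5.35 CPM [2.57, 9.85], T cells 2.38 CPM [1.82, 3.05] and macrophages 1.91 CPM [1.43, 2.52]. The intervals of plasmacytoid dendritic cells, tumour cells, basophils or mast cells and dendritic cells overlapped with each other. Endothelial cells had 0.51 CPM and fibroblasts 0.22 CPM, and no UMI was found in pericytes, keratinocytes or B cells. Without cells that had the keratin share of the tumour cell gate, basophils or mast cells had 3.51 CPM [1.14, 8.19] on 5 UMIs. In the same way NK cells had 19.1 CPM, dendritic cells 4.99 CPM, T cells 2.22 CPM and macrophages 1.66 CPM.

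Padi3, known from hair follicles, was the least counted member, with 431 UMIs in all. Tumour cells had 3.41 CPM [2.97, 3.90] in library 1 and 3.81 CPM [2.13, 6.28] in library 2, and the intervals overlapped. Neutrophils had 0.74, 0.39, 0.92 and 0.93 CPM in libraries 1 to 4, on 1, 2, 5 and 4 UMIs, again all below both tumour cell values. The pooled levels were 3.43 and 0.74 CPM, with a log2 ratio of 2.21 [1.38, 3.19]. Pericytes, marked by Rgs5, had 8.00 CPM [4.48, 13.2], the highest value of any class, with 15 UMIs in 12 of 79 cells. Of these UMIs 11 were in 30 pericytes of library 2 (20.7 CPM), 3 in library 3 (2.49 CPM), 1 in library 4 and none in library 1. Keratinocytes had 5.78 CPM [1.58, 14.8] on 4 UMIs, an interval that held the levels of both pericytes and tumour cells. The share of cells with a UMI was 6.11% in tumour cells, 15.2% in pericytes, 0.19% in neutrophils and 0.50% in fibroblasts. Below these came basophils or mast cells (2.14 CPM), dendritic cells, neutrophils and macrophages (0.71 to 0.74 CPM), T cells (0.55 CPM), fibroblasts (0.34 CPM) and monocytes (0.23 CPM), and NK cells, B cells, plasmacytoid dendritic cells and endothelial cells had no UMI. Without cells that had the keratin share of the tumour cell gate, macrophages had 0.46 CPM, T cells 0.41 CPM and dendritic cells 0.26 CPM.

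Within tumour cells the levels of the members were compared between dividing and other cells. Of the tumour cells 896 held at least 2 UMIs of Mki67 and Top2a together, genes expressed in dividing cells, and these cells were deeper (median 26510.5 UMIs) than the 2198 others (17431 UMIs). Padi3 was at 4.63 CPM in the dividing cells of library 1 and at 2.66 CPM in the others, a ratio of 1.74 [1.33, 2.30]. Padi1 went the other way, at 3.24 and 5.06 CPM, a ratio of 0.64 [0.49, 0.83], and Padi2 did not differ detectably, at 6.15 and 5.46 CPM (ratio 1.13 [0.91, 1.39]). Padi4 was at 141 CPM in the dividing cells and 179.9 CPM in the others, a ratio of 0.79 [0.75, 0.82]. At 1000 UMIs per cell, however, 16.1% [13.7, 18.8] of the dividing cells of library 1 and 15.5% [14.0, 17.1] of the others held a Padi4 UMI, so no order was read for Padi4. Over both libraries the ratios were 1.59 for Padi3, 0.49 for Padi1, 1.07 for Padi2 and 0.79 for Padi4. The thinned shares of Padi1 in library 1 (0.23% and 0.56%) and of Padi3 (0.46% and 0.38%) had overlapping intervals. The order of their levels was thus not seen at equal depth, where few cells held a UMI of these genes.

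**Figure D4:**
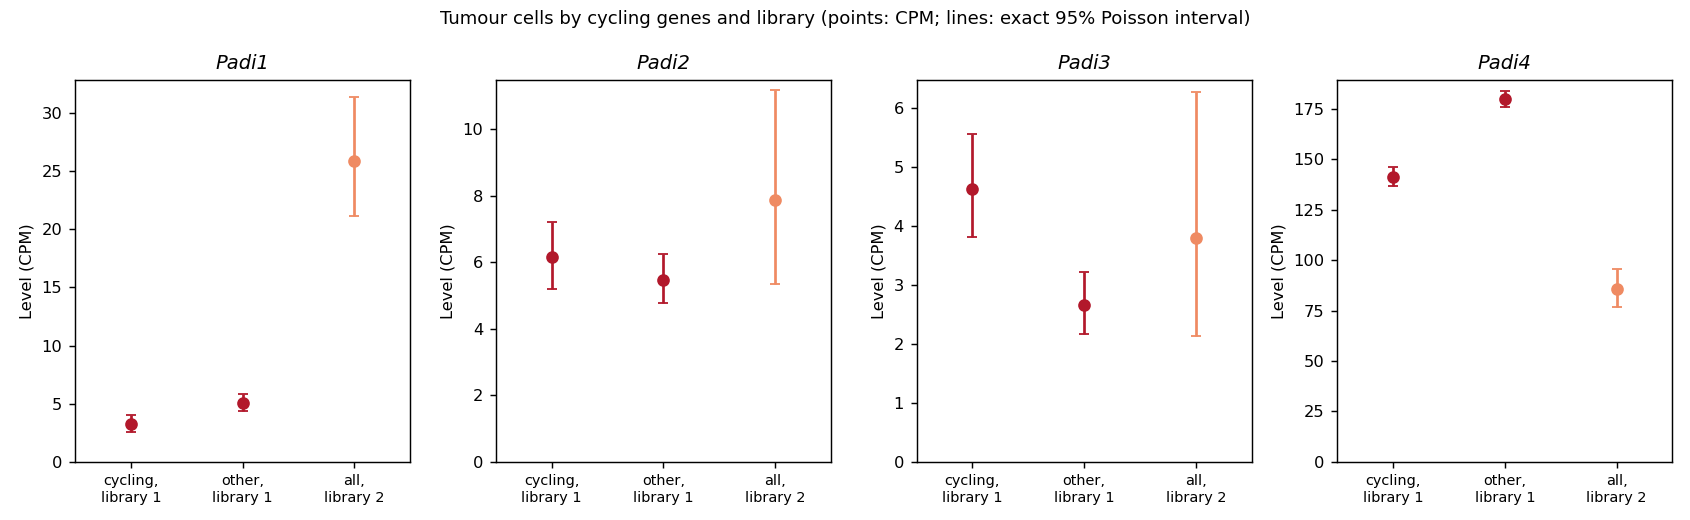
Level of each deiminase gene (CPM, linear axes from 0) in tumour cells of library 1 with at least 2 UMIs of Mki67 and Top2a (cycling), in the other tumour cells of library 1 and in the 102 tumour cells of library 2, with exact 95% Poisson intervals as lines. Padi1 stands highest in library 2 (25.9 CPM), the level of Padi3 is higher in the cycling cells of library 1, and Padi4 is lowest in library 2 (85.8 CPM). The tumour cells of library 2 were deeper than those of library 1 (median 36149 against 19172 UMIs). At equal depth the shares of cycling and other cells with Padi3 had overlapping intervals.

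The Padi4 level also fell with depth. The 2992 tumour cells of library 1 were ranked by UMIs and divided into 3 parts of about equal size. In the shallowest cells (5060 to 15415 UMIs) it was 188 CPM [179.9, 196], in the middle ones 184 CPM [178, 190] and in the deepest (23524 to 102874 UMIs) 147 CPM [143, 151]. The intervals of the 3 parts overlapped for Padi1 (4.83, 4.39 and 4.20 CPM), Padi2 (5.46, 5.07 and 6.19 CPM) and Padi3 (3.58, 2.77 and 3.72 CPM). The part of depth in the difference between dividing and other cells was not tested beyond the thinned shares. In 142 tumour cells without a UMI of Epcam, an epithelial adhesion gene, Padi4 was at 189.6 CPM [171, 209] against 159.6 CPM [157, 163] in those with it, and these cells were shallower (median 13608 against 19612 UMIs). Padi1 was at 3.35 CPM without and 5.69 CPM with Epcam and Padi2 at 7.18 and 5.81 CPM, with overlapping intervals. Padi3 was at 0.96 CPM without Epcam, on 2 UMIs, and at 3.51 CPM with it. The ratio of cells with Epcam over those without was 3.67 [1.004, 30.5] for Padi3, and 3.44 [0.94, 28.6] inside library 1.

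Most tumour cells held the transcripts of 1 member only, but most of those with Padi1, Padi2 or Padi3 also held Padi4 (91.7%, 89.4% and 89.9%). Of the 3094 tumour cells, 321 held none of the 4 transcripts, 2129 held those of 1 gene, 563 of 2 genes, 72 of 3 genes and 9 of all 4. Padi1 was found in 15.6% [11.9, 19.9] of tumour cells with Padi2 and in 8.09% [7.10, 9.18] of those without it. After each cell was thinned to 5000 UMIs the shares were 6.02% [1.98, 13.5], on 5 cells, and 2.19% [1.70, 2.78], with overlapping intervals. Padi4 was found in 91.7% of cells with Padi1 and 86.9% of those without, and in 59.2% [46.8, 70.7] and 51.0% [49.2, 52.8] after thinning. Joint detection beyond what depth gives was thus not detectable for these pairs.

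Neutrophils were divided by genes of their states. Those with Retnlg, a marker of mature neutrophils, had 17.7 CPM of Padi4 [14.8, 21.1] and the others 6.19 CPM [4.67, 8.06], a ratio of 2.86 [2.07, 4.00]. This rested on library 1: in libraries 2 to 4 the levels were 8.36 and 5.87 CPM, a ratio of 1.42 [0.95, 2.14]. Neutrophils with Ltf, Camp or Ngp, genes of the specific granules, had 25.1 CPM and the others 10.0 CPM over all libraries, a ratio of 2.51 [1.71, 3.60]. In libraries 2 to 4 the ratio turned to 0.70 [0.25, 1.59], on 6 UMIs in the cells with these genes. Neutrophils with and without Cd274, which encodes the checkpoint ligand PD-L1, had 10.5 and 12.0 CPM, a ratio of 0.88 [0.64, 1.19]. No split of neutrophils thus had an interval clear of 1 outside library 1 for Padi4.

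Cells just outside the gates were examined because the gates set which cells were compared. Cells with the keratin share of the tumour gate and no Ptprc but under 5000 UMIs (457 cells) had 227 CPM of Padi4 [196, 262]. Cells with the keratin share and a Ptprc UMI (483 cells, median depth 21587 UMIs) had 144 CPM [137, 151]. Both levels were of the order of the 161 CPM of the gated tumour cells. Cells with the S100a8 and S100a9 share but no Csf3r UMI (2408 cells) had 9.61 CPM [6.99, 12.9], an interval that overlapped with that of the gated neutrophils. Of 7426 ungated cells below both shares, the 650 with an Epcam UMI had 88.4 CPM and the 6776 without it 4.57 CPM. Those with Epcam had 143 CPM in library 1 (366 cells) and 68.5 CPM in library 2 (212 cells). In library 3 (65 cells, interval [0, 4.34]) and library 4 (7 cells) they held no Padi4 UMI. In all, 71.9% of the Padi4 UMIs lay in gated tumour cells, 20.8% in ungated cells and 1.22% in neutrophils.

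The neighbours of the cluster did not all share its direction. Of 14 further genes annotated within 100000 bases, 7 had at least 20 UMIs in the 2 classes. Gm13032 had 4.42 CPM in tumour cells and 0.12 CPM in neutrophils, a ratio of 35.8 [9.83, 297] on 2 neutrophil UMIs. Rcc2, which encodes a regulator of mitosis and lies beyond Padi6, had 63.2 and 14.9 CPM, a ratio of 4.23 [3.72, 4.84]. Mfap2, which encodes a matrix microfibril protein, was lower, at 1.40 and 17.9 CPM, with 197 of its 290 neutrophil UMIs in library 2. The neutrophils of library 2 held 3 fibroblast genes that no gate used at a summed 973 CPM, against 12.6 CPM in library 1. The part of fibroblast transcripts in the Mfap2 level was not tested. Inside library 1 the ratio was 3.07 for Gm13032 and 2.53 for Rcc2, both under 4-fold, and Mfap2 had 71 UMIs in tumour cells and none in neutrophils. Sdhb, a subunit of succinate dehydrogenase, had 158 and 63.7 CPM, Arhgef10l 10.1 and 6.54 CPM, Crocc 4.13 and 2.16 CPM and Atp13a2 6.81 and 16.5 CPM, all within 4-fold. The median log2 ratio over all genes tested was 0.61.

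**Figure D5:**
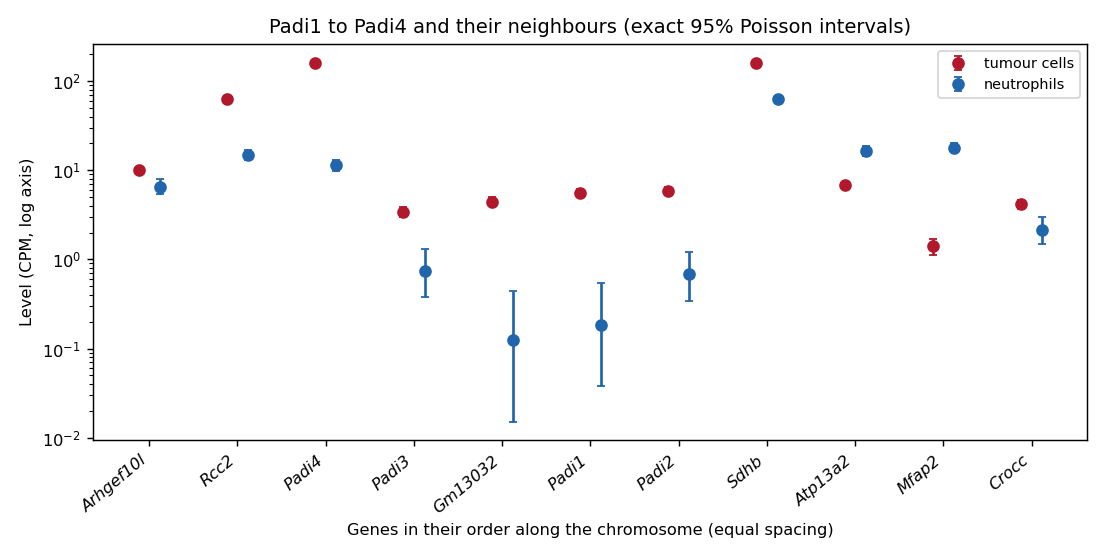
Level (CPM, log axis) of the deiminase genes and of the neighbours with at least 20 UMIs, in chromosome order at equal spacing, in tumour cells (red) and neutrophils (blue), with exact 95% Poisson intervals as lines. In these counts over all libraries the 4 deiminase genes, Gm13032 and Rcc2 are at least 4-fold higher in tumour cells (inside library 1 Padi1, Padi4, Gm13032 and Rcc2 are under 4-fold), and Mfap2 is lower (1.40 against 17.9 CPM). Inside library 1 Mfap2 had 71 UMIs in tumour cells and none in neutrophils.

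The genes of neutrophil granules and of trap release were mostly lower in tumour cells than in neutrophils. This direction largely follows from the choice of the list and of the gates, so nothing is read from it. Of 18 such genes, 17 had enough UMIs, 15 were at least 4-fold lower in tumour cells, 2 were within 4-fold and none was higher, with a median log2 ratio of -5.83. Over all genes tested 17.1% were lower. The granule enzyme gene Mpo was at 1.48 CPM in neutrophils on 24 UMIs, of which 22 lay in 4 cells of library 4, with 19 in 1 cell. Elane, which encodes neutrophil elastase, was at 0.31 CPM on 5 UMIs in 2 cells. The primary granule gene Prtn3 was at 9.13 CPM on 148 UMIs in 1.82% of neutrophils, and at 21.6 CPM in monocytes. Ctsg, another gene of these granules, was at 4.94 CPM on 80 UMIs in 0.048% of neutrophils, and 79 of these UMIs were in library 4. Ncf1 and Ncf4, which encode subunits of the oxidase that makes superoxide, were at 267 and 502 CPM in neutrophils and at 3.48 and 8.83 CPM in tumour cells. Lcn2, which encodes an iron-carrier-binding protein, was within 4-fold, at 2183 and 1406 CPM, as was Gsdmd, which encodes a pore-forming protein, at 38.5 and 22.2 CPM. Inside library 2, however, Lcn2 was at 3174 CPM in neutrophils and 305 CPM in tumour cells. Of 15 genes with enough UMIs inside library 1, 12 were at least 4-fold lower and 3 (Lcn2, Gsdmd and Mmp9) within 4-fold, where 7.69% of 14818 genes tested were lower. Inside library 2, 14 of 15 were lower, where 14.9% of 11840 genes tested were.

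Among 10 genes for proteins known to be citrullinated, 9 had enough UMIs. In tumour cells 3 were at least 4-fold higher, 1 was lower and 5 were within 4-fold, with a median log2 ratio of 1.56. Over all genes tested 19.6% were higher and 17.1% lower. The higher ones were the nucleolar gene Npm1 (2774 against 371 CPM), the fibronectin gene Fn1 (1527 against 294 CPM) and the keratin gene Krt10 (17.9 against 3.39 CPM). Inside library 1, where 6.35% of genes tested were at least 4-fold higher in tumour cells, only Krt10 of 9 genes was (4.01-fold), and Npm1 (2761 against 971 CPM) and Fn1 (1535 against 394 CPM) were within 4-fold. Inside library 2, where 22.1% of genes tested were higher, 4 of 7 genes were, namely Npm1, Krt10, Vim and the hair gene S100a3, and Fn1 was within 4-fold. Over all libraries Vim, which encodes the filament protein vimentin, was at 4061 CPM against 1234 CPM. The filaggrin gene Flg, a substrate known from skin, held 1 UMI in tumour cells and none in neutrophils, and the trichohyalin gene Tchh was the lower one, at 0.34 and 1.67 CPM. These 2 transcripts of skin and hair substrates were thus counted at no more than 1.67 CPM in either class.

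Of 11 genes of arginine handling, all had enough UMIs, 2 were at least 4-fold higher in tumour cells, 3 were lower and 6 were within 4-fold (median log2 ratio 0.78). Over all genes tested 19.6% were higher and 17.1% lower, and nothing is read from the counts of this list. Ddah2, which breaks down methylated arginine, was at 150.2 against 15.4 CPM, and Prmt1, which encodes the main arginine methyltransferase, at 248 against 39.4 CPM. The arginase genes Arg1 and Arg2 were lower, at 7.59 against 129 CPM and at 7.41 against 803 CPM. Inside library 1 none of the 11 genes was at least 4-fold higher, 2 were lower and 9 were within 4-fold, among them Ddah2 (153 against 48.8 CPM), Prmt1 (251 against 106 CPM) and Arg1 (7.23 against 28.8 CPM). Of all genes tested there, 6.35% were higher and 7.69% lower. Inside library 2, 3 were higher (Ddah2, Prmt1 and Prmt5), 3 were lower and 5 were within 4-fold. The shares over all genes tested in library 2 were 22.1% higher and 14.9% lower. The oestrogen receptor gene Esr1, whose hormone is known to act on deiminase genes, was at 5.10 and 4.07 CPM and Trp53 at 33.9 and 23.3 CPM, both within 4-fold, while the progesterone receptor gene Pgr had no UMI in tumour cells and 1 in neutrophils.

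The genes whose levels were most like those of the members were found over 28 units, each a class within a library with at least 50 cells, by Pearson's r of log2(CPM + 1) among 13464 genes with at least 500 UMIs. These units share libraries and depth, and the values are descriptions. For Padi4 they were Syt8 (r = 0.96), Krt7, Gpa33, Misp and Cxadr (each r = 0.94), and without the 2 tumour cell units r was 0.92 to 0.95. These are mostly genes of epithelial cells. For Padi1 they were Ocln (r = 0.86), G930009F23Rik (r = 0.86), Arntl2 (r = 0.84), Ehf (r = 0.80) and Mir763 (r = 0.80), of which Ocln encodes the tight junction protein occludin and Ehf an epithelial transcription factor. Without the 2 tumour cell units r for Padi1 was 0.75 for Ocln, 0.65 for G930009F23Rik, 0.76 for Arntl2, 0.83 for Ehf and 0.38 for Mir763. For Padi2 they were Arap2 (r = 0.85), Mettl23 (r = 0.84), Prpf38b (r = 0.82), Ramp1 (r = 0.81) and Hist1h2bg (r = 0.80), and r was 0.79 to 0.83 without these units. Padi3 had under 500 UMIs and was not compared. Leaving out the tumour cell units did not leave out keratin transcripts. The other units of library 1 held Krt8 and Krt18 together at 359 to 1811 CPM. The part of tumour cell transcripts in the remaining r was not tested.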

How the data were processed

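Single-cell suspensions of 4T1 tumours were profiled by 10x Genomics RNA sequencing. The authors deposited 1 matrix of UMI counts per gene and barcode, as whole numbers that are not scaled per cell, made with Cell Ranger, by which reads were aligned, cells were called and the UMIs of 4 libraries were joined. The matrix header names version 6.1.2, the methods 3.0.2 and the submitters' processing notes 2.1.1 with the build mm10. Equalising of read depth between libraries is not stated by the sources read. All 55450 gene identifiers were found in GENCODE vM21, which gave the coordinates, and the promoter windows came from RefSeq, where all 4 members matched.

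Barcodes with at least 300 genes and at most 15% mitochondrial UMIs were kept, as in the study's methods, which left more cells than the study states. Cells were assigned by marker gates, with no clustering. A cell in neither the tumour cell nor the neutrophil gate was given another class if it met exactly 1 further gate. The gates were Cd3d, Cd3e and Cd3g (T cells), Ncr1 without them (NK cells), Cd79a, Cd79b and Ms4a1 (B cells), Siglech without Csf1r (plasmacytoid dendritic cells), Flt3 and H2-Ab1 (dendritic cells), C1qa, C1qb and C1qc with Csf1r (macrophages), Ly6c2 and Ccr2 with little C1q (monocytes), Ms4a2, Mcpt8 and Cpa3 (basophils or mast cells), Col1a1, Col1a2 and Col3a1 (fibroblasts), Pecam1 and Cdh5 (endothelial cells), Rgs5 (pericytes) and Krt5 with Lgals7 (keratinocytes), the last 4 without Ptprc. Cells that met several further gates (1533) or none (10774) were given no class. Classes are named for their gates, which can differ from the authors' annotation.

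UMIs were summed over the cells of a class. Intervals are exact at 95% (Poisson for levels, Clopper-Pearson for shares, conditional binomial for ratios), a count of 0 was taken to allow 3 counts, and thinning drew 1000 UMIs per cell (5000 for pairs of genes) without replacement. Doublets were kept, and the threshold that Scrublet set itself took 3.57%, 0.0232%, 0.0442% and 0.0337% of libraries 1 to 4, so in libraries 2 to 4 it did not work. As an alternative the highest 5% of scores in each library were removed. Python 3.11.15, numpy 2.4.6, scipy 1.17.1, pandas 2.3.3, scanpy 1.11.5 and matplotlib 3.10.9 were used. The steps were tested on simulated data.

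The genes named are the 4 members, Padi6, the genes within 100000 bases of the cluster, 4 lists (neutrophil trap and granule genes, citrullinated proteins, hormone receptors with p53, arginine handling), the gate and check markers, and for each member with at least 500 UMIs the 5 genes of highest correlation. The members, lists and gates were chosen with earlier results of these data known. Alternatives changed the filters, the gates, doublet removal, depth and the libraries used. Ratios and list counts inside a library, the depth parts of library 1, the keratin comparison and the Epcam split of ungated cells were added after seeing the data. Check markers of T cells, fibroblasts, macrophages, monocytes and endothelial cells had summed levels of 3.98, 30.1, 180.8, 1536 and 7.00 CPM in tumour cells and 7.22, 556, 789, 993 and 10.2 CPM in neutrophils. Of the monocyte markers, Fn1 alone had 1527 CPM in tumour cells and 294 CPM in neutrophils. Treatments were not compared because barcodes could not be linked to samples. Some genes of these lists are not reported here by name.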

Additional observations from a re-analysis of the deposited data

Results flagged for a closer look

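The spread of each member over the 4 libraries was examined in 5 classes with at least 50 cells in every library, which gave 20 sets of 4 values. In 7 of them the highest library lay further from the nearest other one than Dixon's 95% critical value for 4 values allows. Chance flags about 1 in 20 sets when sets are independent, and these share libraries, so nothing is read from their number. Padi4 was set apart in library 1 in 4 classes, at 60.6 CPM in neutrophils (6.62 to 7.69 CPM in the others), 24.6 CPM in macrophages (0 to 2.45 CPM), 49.9 CPM in monocytes (0 to 4.16 CPM) and 9.12 CPM in fibroblasts (0.12 to 1.08 CPM). Library 1 held 2992 of the 3094 tumour cells, and its keratin levels in these classes are given with the results. The part of library 1 in these values was not tested in any other way, and it cannot be told apart from the unknown treatment of its mice.

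Padi1 was set apart in 3 classes on very few UMIs, at 1.48 CPM in the neutrophils of library 1 (2 UMIs in 1 cell), and at 0.462 CPM in both the monocytes (1 UMI) and the fibroblasts (6 UMIs) of library 2. The neutrophil that held the 2 UMIs had the keratin share of the tumour cell gate. In the monocytes and fibroblasts the other 3 libraries held no Padi1 UMI, and a single library above 0 against 3 at 0 passes by construction.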

How the results depend on the processing

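No ratio of tumour cells over neutrophils changed direction. The log2 ratio of Padi1 (4.92) was 8.59 without library 1 and 1.56 inside library 1, and it ranged from 4.33 to 8.59 when each library was left out in turn. That of Padi2 (3.11) was 4.72 with S100a8 and S100a9 at 5% of UMIs or more, 4.25 without the highest doublet scores, 4.55 as a mean over cells and 4.34 inside library 2, with a range of 2.82 to 3.55 over the libraries left out. That of Padi3 (2.21) was 3.29 inside library 2, with a range of 1.92 to 2.40. That of Padi4 (3.81) was 4.07 after thinning, 4.06 as a mean over cells, 2.62 with libraries weighted equally and 1.45 inside library 1, with a range of 3.54 to 3.65. The log2 ratio of Padi4 in neutrophils over the other gated classes of libraries 3 and 4 (4.74) was 3.50 after thinning and 4.62 to 5.26 with either library left out. The causes were not tested. Of 56 alternative shares of cells with a UMI, 36 stayed within the interval of the main value and 20 moved, mostly after thinning or with 2 UMIs required. No paired analysis was possible because the barcodes carry no replicate number for the treatments; tumour cells and neutrophils were paired by library in the ratios inside libraries 1 and 2. The ratio of Padi1 rests on 3 neutrophil UMIs, and libraries 3 and 4 held no tumour cells. Of these UMIs, 2 lay in a cell with the keratin share of the tumour cell gate.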
